A study of Cucumis melo with 27 samples.

Results

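TTDV is a melon (Cucumis melo) cultivar, and its fruits at 40 d after flowering were compared with its fruits at 20-25 d by RNA-seq, which counts the sequenced reads that fall in each gene. The comparison holds 6 of the 27 libraries of the series, 3 of TTDV fruit at 40 d and 3 of TTDV fruit at 20-25 d. The 6 libraries were chosen by library number, and this assignment is assumed. The files numbered 16 to 18 carry the numbers in the titles of TTDV fruit at 40 d, but they are attached to samples titled as TTDV fruit at 30-35 d. The files numbered 10 to 12 carry the numbers in the titles of TTDV fruit at 20-25 d, but they are attached to samples titled as F39 fruit at 45 d. If the attachment were right instead, the same 6 libraries would compare TTDV fruit at 30-35 d with F39 fruit at 45 d, and the values given below for these 6 libraries would be values of that contrast.

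The series holds 9 groups of 3 libraries, all from field-grown plants: TTDV fruit at 40 d and at 20-25 d, TTDV fruit at 30-35 and 45 d, fruit of the cultivar F39 at the same 4 stages, and 14-day-old leaves of F39. No treatment is given for any group, and both TTDV groups share the field and its management. The labels give neither the fruits or plants behind each library nor the part of the fruit taken, so p-values measure the spread between these libraries, which may be technical. Numbers in title and file agree for 15 libraries, among them F39 fruit at 40 d and at 20-25 d and TTDV fruit at 45 d, and differ for 12.

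A young melon fruit grows by cell division and cell expansion and is firm, green and low in sugar. Later it accumulates sucrose, loses chlorophyll, builds up pigment and aroma compounds and softens as its cell walls are taken apart, and in some melon types the hormone ethylene drives part of this change. Genes appear here under the files' own IDs, which come without names: the reference gene table matched 0 of the 25200 IDs. Genes are therefore grouped by the size of their change, their abundance, their timing, their level in leaf and their change in F39.

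Total counts ranged from 9137944 to 15214810 in the TTDV 40 d libraries and from 10338794 to 13964844 in the TTDV 20-25 d libraries, within a range of 6025615 to 28731038 over the series. Levels are given in CPM, a gene's counts scaled to the library's total, with replicates 1, 2 and 3 in this order. The number of genes at 1 CPM or more was 11712, 11304 and 11525 at 40 d, against 12072, 12489 and 12054 at 20-25 d. Every 40 d library had fewer than every 20-25 d library, and a two-sided exact permutation test gave p = 0.1, the smallest that 3 against 3 allows. The rank correlation across the 15130 genes tested was 0.909 to 0.955 among the 40 d libraries and 0.925 to 0.938 among the 20-25 d libraries. Replicate 2 of 40 d stood apart: it correlated at 0.83 to 0.869 with the 20-25 d libraries, whereas replicates 1 and 3 of 40 d correlated at 0.754 to 0.795 and at 0.75 to 0.79. A set of 68 genes found in F39 leaf and at under 0.1 CPM in F39 fruit at 20-25, 30-35 and 40 d served as a check of the tissue. Of these, 53 to 57 had no count in the 40 d libraries and 55 to 63 none in the 20-25 d libraries. Together they summed to 3.61, 3.88 and 31.2 CPM in the 40 d libraries and to 3.08, 8.80 and 2.20 CPM in the 20-25 d libraries, against 1443 to 1529 CPM in leaf. Of the 31.2 CPM, 29.4 CPM came from 1 gene, MELO3C021918.2, which was chosen for mention after its values were seen. The 6 libraries are thus nearly free of these leaf transcripts. Markers of fruit tissues could not be looked up without gene names.

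A large part of the transcriptome differed between the ages. Of 15130 genes tested, 2736 (18.1%) were higher at 40 d and 2571 (17%) were lower, 5307 (35.1%) in all, by edgeR's quasi-likelihood test with a Benjamini-Hochberg adjusted p under 0.05, which is what "called" means here. The median log2 fold change was 0.00 over all genes tested, 1.78 over the called higher genes and -2.67 over the called lower genes. By fitted values, decreases were therefore the deeper ones: 1134 genes were higher and 1608 lower by more than 4-fold, and 341 were higher and 527 lower by more than 32-fold. Of the called genes, 180 higher ones had no count at 20-25 d and 167 lower ones none at 40 d. For these the fitted fold is not a measured size. Over 2-fold, 2422 genes were higher and 2413 lower, 4835 (32.0%) in all. In bulk tissue, fewer cells of a type and less RNA per cell cannot be told apart. Leaving out replicate 1 of 20-25 d left 1611 genes called higher, and leaving out replicate 1 of 40 d left 1675 called lower. With median-of-ratios scaling, which moved the median of all genes by -0.119, 2325 were called higher and 2947 lower.

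**Figure D1:**
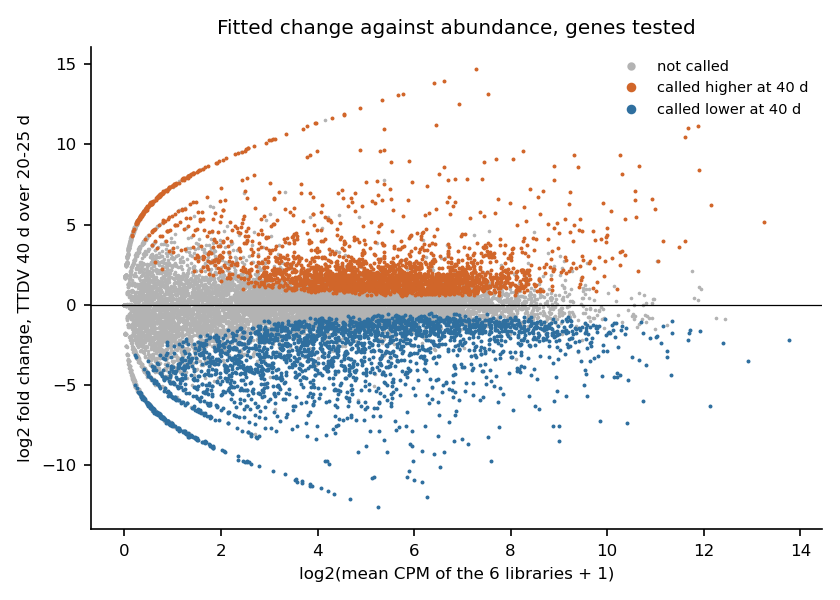
Each point is a gene: the fitted log2 fold change of TTDV 40 d over 20-25 d against log2 of the mean CPM of the 6 libraries plus 1. The 2736 genes called higher and the 2571 called lower at 40 d are coloured, and by the median the lower ones lie farther from 0, at -2.67 against 1.78.

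The called genes held much of the RNA at the age at which they were high, which their choice implies and which is given as a description. Genes called higher took 49.1%, 33.2% and 48.7% of all counts at 40 d, against 6.77%, 9.56% and 9.98% at 20-25 d. Genes called lower took 9.77%, 14.4% and 10.3% at 40 d, against 52.7%, 44.3% and 44.2% at 20-25 d. Replicate 2 of 40 d lay nearest the younger fruit in both. It was the lowest of the 3 libraries of 40 d for 61.7% of the genes called higher. Even so, leaving it out changed the counts of calls little, to 2515 higher and 2479 lower.

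Called genes were unevenly spread over abundance. Of 2117 genes that averaged 100 CPM or more over the 6 libraries, 28.7% were higher and 25.9% lower at 40 d, and of 6395 genes at 10 to 100 CPM, 25.1% were higher and 17.2% lower. The balance turned among 4108 genes at 1 to 10 CPM, where 9.25% were higher and 18.7% lower. Among 2510 genes under 1 CPM, 5.62% were higher and 6.22% lower, with a median standard error of 1.68 on the log2 scale, against 0.40 for the most abundant class. The fewer calls among rare genes thus come with a wider error, though standard errors here are derived from the test statistic. They are rough where counts are almost absent. A total of 180 called genes had no count in any 20-25 d library, and 167 had none in any 40 d library. Most of both were rare in the other group, 147 and 135 of them with a mean under 5 CPM.

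The largest increases were in genes with little or no RNA in the younger fruit. Groups without overlap were a condition for choosing the genes of largest change and the most abundant called genes below. For a gene without counts in a group, the fold is a lower bound against a floor of 3 counts over that group, and its fitted log2 value is no bound. MELO3C000113.2 had 272, 140.1 and 314 CPM at 40 d, against 0, 0.0967 and 0 CPM at 20-25 d, where a single read was counted. The groups lay far apart, at a ratio of 8747 with an exact Poisson 95% interval of 1570 to 345503 that covers counting error only. Its log2 fold change was 12.55 (SE 1.5, edgeR quasi-likelihood test with Benjamini-Hochberg adjustment, adjusted p = 4.18e-05). It had no count in leaf, and in F39 it had 83.1, 68.8 and 63.4 CPM at 40 d and no count at 20-25 d.

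MELO3C030339.2 had 396, 144 and 394 CPM at 40 d and no count in any 20-25 d library. It was at least 3749-fold higher at 40 d, and at least 3238-fold in the lowest of the values without 1 library of 40 d (log2 fold change 14.71, SE 2.85, edgeR quasi-likelihood test with Benjamini-Hochberg adjustment, adjusted p = 0.000925). All 3 libraries of 40 d thus held a gene that was not detectable at this depth at 20-25 d. F39 fruit had 689, 1019 and 600.5 CPM at 40 d and 1.67, 0 and 0 CPM at 20-25 d. MELO3C002311.2 had 150.4, 8.02 and 164 CPM at 40 d and no count at 20-25 d, at least 1294-fold higher (adjusted p = 0.000452, edgeR quasi-likelihood test with Benjamini-Hochberg adjustment). Replicate 2 of 40 d was the low one by a wide margin, though still well above the younger fruit.

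In the 4 other genes of this group, 1 or 2 libraries of 40 d carried most of the signal. MELO3C001489.2 had 339.6, 0.131 and 768 CPM at 40 d, against 0.0716, 0 and 0 CPM at 20-25 d. Its ratio of 13341 (2395 to 526953, exact Poisson 95% interval) was 6135 without replicate 3 of 40 d, and the adjusted p was 0.00638 with all libraries and 0.0173 without that one (edgeR quasi-likelihood test with Benjamini-Hochberg adjustment). MELO3C000985.2 had 21.9, 2.04 and 109.9 CPM at 40 d and none at 20-25 d. Its bound of 537-fold was 144-fold without replicate 3 of 40 d, and the adjusted p of 0.0143 (edgeR quasi-likelihood test, Benjamini-Hochberg) became 0.0513 without that library and 0.0514 without replicate 1 of 20-25 d. For both genes the 40 d libraries differed widely among themselves. MELO3C013057.2 had 581, 1.05 and 0.745 CPM at 40 d and none at 20-25 d. Its bound of 2338-fold became 10-fold without replicate 1 of 40 d. That call (edgeR quasi-likelihood test with Benjamini-Hochberg adjustment, adjusted p = 0.0223) was lost when replicate 1 of 40 d was left out (adjusted p = 0.292) and when any 1 of the 20-25 d libraries was (adjusted p = 0.0601 to 0.0700). MELO3C005450.2 had 3.72, 0.197 and 296 CPM at 40 d and none at 20-25 d, and its bound of 1205-fold became 23-fold without replicate 3 of 40 d. The adjusted p was 0.00379 with all libraries and 0.0349 without that one (edgeR quasi-likelihood test with Benjamini-Hochberg adjustment). A single library therefore sets the size of these last 2 changes.

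The largest decreases were in genes of moderate level in young fruit that had at most 1 read in the older fruit. MELO3C025773.2 had no count in any 40 d library, against 28.3, 56.9 and 19.8 CPM at 20-25 d, at least 424-fold lower at 40 d (log2 fold change -11.58, SE 1.51, edgeR quasi-likelihood test with Benjamini-Hochberg adjustment, adjusted p = 4.85e-05). It was not a fruit gene alone, with 34.2, 12.8 and 24.3 CPM in leaf. MELO3C024263.2 had no count at 40 d, against 49.8, 69.5 and 28.5 CPM at 20-25 d, and was at least 598-fold lower (adjusted p = 0.000261, edgeR quasi-likelihood test with Benjamini-Hochberg adjustment). MELO3C023401.2 likewise had no count at 40 d, against 49.98, 41.2 and 24.4 CPM at 20-25 d, at least 467-fold lower (adjusted p = 0.000783, same test and adjustment in edgeR). Beyond the lack of overlap that the choice required, in these 3 genes every 20-25 d library lay far above every 40 d library.

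The 20-25 d libraries differed more in the other 4. MELO3C010979.2 had no count at 40 d, against 10.0, 18.2 and 66.2 CPM at 20-25 d, and its bound of 382-fold lower became 171-fold without replicate 3 of 20-25 d. The adjusted p was 0.000889 with all libraries and 0.00241 without that one (edgeR quasi-likelihood test with Benjamini-Hochberg adjustment). MELO3C003015.2 had 0, 0 and 0.0828 CPM at 40 d, 1 read in all, against 36.4, 72.9 and 349.9 CPM at 20-25 d. Its ratio of 20-25 d over 40 d was 5577 (1001 to 220284, exact Poisson 95% interval), and 1992 without replicate 3 of 20-25 d. The adjusted p was 0.0016 with all libraries and 0.0042 without that one (edgeR quasi-likelihood test with Benjamini-Hochberg adjustment). Replicate 3 of 20-25 d was the high one for both genes. MELO3C031049.2 had no count at 40 d, against 63.5, 15.1 and 2.12 CPM at 20-25 d, and the bound of 326-fold became 104-fold without replicate 1 of 20-25 d. The adjusted p was 0.00714 with all libraries and 0.0253 without that one (edgeR quasi-likelihood test with Benjamini-Hochberg adjustment). MELO3C028684.2 had no count at 40 d, against 1.22, 218 and 4.91 CPM at 20-25 d, at least 907-fold lower and 37-fold without replicate 2 of 20-25 d. The adjusted p was 0.00635 with all libraries and 0.0248 without that one (edgeR quasi-likelihood test with Benjamini-Hochberg adjustment). No 20-25 d library was the high one for all 4.

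**Figure D2:**
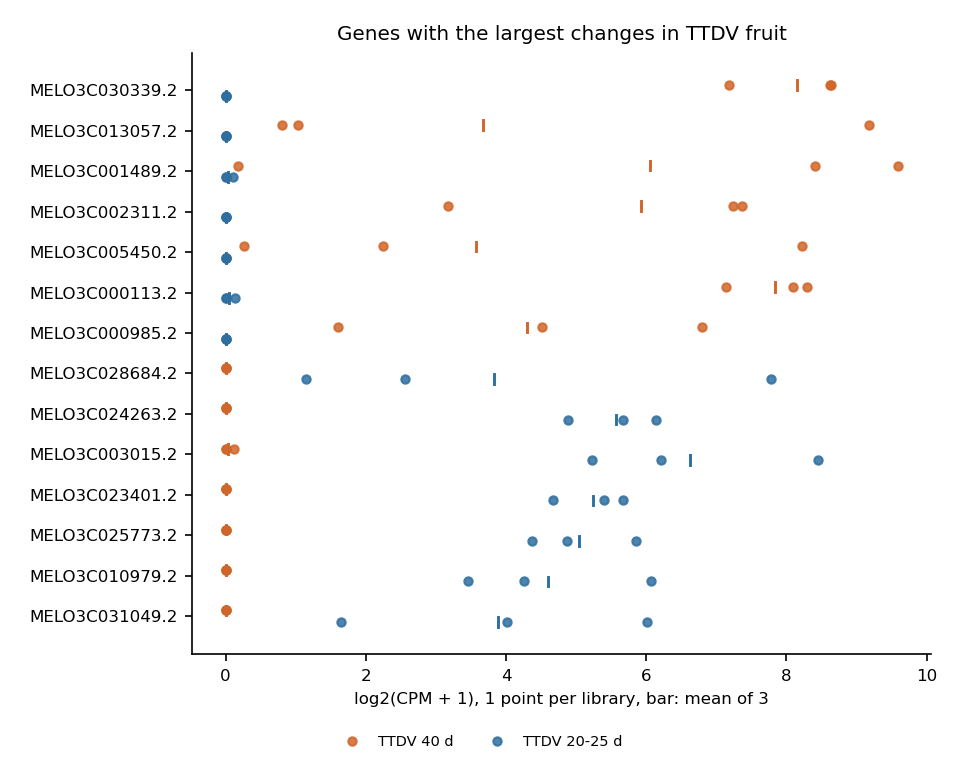
The 7 genes with the largest increase and the 7 with the largest decrease, as log2(CPM + 1) in each of the 3 TTDV 40 d and 3 TTDV 20-25 d libraries, with a bar at the mean of the logs. The groups do not overlap for any of the 14 genes, which the choice required. MELO3C013057.2 and MELO3C005450.2 are nonetheless high in only 1 library of 40 d and MELO3C028684.2 in only 1 library of 20-25 d. For MELO3C001489.2 the groups barely part, at 0.131 CPM in replicate 2 of 40 d against 0.0716 CPM in replicate 1 of 20-25 d.

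A complete switch across all 6 libraries was uncommon. With 5 CPM or more in every library of one age and under 0.1 CPM in every library of the other, 5 genes were on at 40 d and off at 20-25 d, and 17 were off at 40 d and on at 20-25 d. Without replicate 2 of 40 d the numbers were 24 and 41. All 22 were called in TTDV, where 35.1% of all genes tested were and where the choice of genes fixes the direction. In F39, which the choice did not use, all 5 were called higher, as were 11.2% of all genes tested, and all 17 lower, as were 15% of all genes. Beside MELO3C000113.2, MELO3C002311.2 and MELO3C030339.2, the genes on at 40 d were MELO3C002309.2, with 13.1, 6.64 and 12.8 CPM at 40 d, and MELO3C021155.2, with 9.96, 6.97 and 25.3 CPM at 40 d, both without a count at 20-25 d. These 2 and the examples that follow were chosen after their values were seen. MELO3C021155.2 averaged 48.8 CPM in leaf, so that it was on in leaf and in older fruit, whereas MELO3C000113.2 and MELO3C002309.2 had no count in leaf.

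Of the 17 genes off at 40 d, 13 had no count in any 40 d library, 7 were at 5 CPM or more in every leaf library, and none was under 0.1 CPM in every leaf library. MELO3C016053.2 had no count at 40 d, against 13.3, 16.5 and 14.8 CPM at 20-25 d, among the most even of them. MELO3C022039.2 had 0, 0.0657 and 0 CPM at 40 d, against 59.1, 109 and 34.6 CPM at 20-25 d. Over all genes tested, 52.2% were at 5 CPM or more in every leaf library and 4.77% under 0.1 CPM in every one, so that the absence of leaf-silent genes among the 17 is close to the background. In F39, 9 of the 17 were under 0.1 CPM in every 40 d library and 6 were at 5 CPM or more in every 20-25 d library.

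Among genes with the most counts, 5 increases and 5 decreases of more than 2-fold are described. Counts are not corrected for transcript length, so these are shares of reads and give no order of transcript numbers between genes. MELO3C020432.2 took the largest share of reads of every 40 d library. It had 22995, 16450.0 and 17269.9 CPM at 40 d, 1.89% of counts on average, against 384, 353 and 773 CPM at 20-25 d, 0.0503% on average. The 3 libraries of 40 d were alike and far above the highest 20-25 d library (log2 fold change 5.19, SE 0.90, edgeR quasi-likelihood test with Benjamini-Hochberg adjustment, adjusted p = 0.000324). It stayed at 506, 426 and 512 CPM in TTDV at 30-35 d, and in F39 it had 15420.1, 24667 and 20545 CPM at 40 d, against 902, 1148 and 696 CPM at 20-25 d.

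The other 4 started from far lower counts. MELO3C025798.2 had 8688, 4309 and 6578 CPM at 40 d, against 3.29, 1.16 and 4.23 CPM at 20-25 d (log2 fold change 11.06, SE 1.63, edgeR quasi-likelihood test with Benjamini-Hochberg adjustment, adjusted p = 9.36e-05). MELO3C010776.2 had 9499.7, 2929.6 and 10504 CPM at 40 d, against 29.4, 17.7 and 17.7 CPM at 20-25 d (log2 fold change 8.39, SE 1.46, edgeR quasi-likelihood test with Benjamini-Hochberg adjustment, adjusted p = 0.000348). The groups lay far apart for both genes, with replicate 2 lowest at 40 d. MELO3C024766.2 had 8067, 2217 and 8580.3 CPM at 40 d, against 8.59, 0.580 and 2.79 CPM at 20-25 d. Its log2 fold change was 10.48 (SE 2.23, edgeR quasi-likelihood test with Benjamini-Hochberg adjustment, adjusted p = 0.00151), and 11.77 without replicate 1 of 20-25 d, the highest at that age. MELO3C024771.2 had 5938, 1888 and 14823 CPM at 40 d, against 5.16, 0.677 and 3.47 CPM at 20-25 d. Its log2 fold change was 11.15 (SE 2.75, edgeR quasi-likelihood test with Benjamini-Hochberg adjustment, adjusted p = 0.00423), 10.12 with replicate 3 of 40 d left out and 11.76 without replicate 1 of 20-25 d. Replicate 2 was again the lowest at 40 d for both genes, and none of the 4 reached 10 CPM in any leaf library.

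Among the genes with many counts described here, the decreases were shallower than the increases above. These few genes do not describe all abundant genes. MELO3C015995.2 was the exception, with 42.4, 197 and 96.6 CPM at 40 d, against 8993, 7379.8 and 10015 CPM at 20-25 d. Its log2 fold change was -6.30 (SE 0.99, edgeR quasi-likelihood test with Benjamini-Hochberg adjustment, adjusted p = 0.000157), and -7.06 without replicate 2 of 40 d. The 20-25 d libraries were close to each other and far above the 40 d libraries. MELO3C007269.2 had 861, 1692 and 1417 CPM at 40 d, against 23449, 10662 and 8445 CPM at 20-25 d. Its log2 fold change was -3.48 (SE 0.70, edgeR quasi-likelihood test with Benjamini-Hochberg adjustment, adjusted p = 0.000953), and -2.87 without replicate 1 of 20-25 d, the highest library. MELO3C006670.2 took the largest share of reads of every 20-25 d library, 2.26% on average, with 2699, 7834 and 4885 CPM at 40 d, against 27048, 14598 and 26246 CPM at 20-25 d. This call was a weak one: the log2 fold change was -2.17 (SE 0.78, edgeR quasi-likelihood test with Benjamini-Hochberg adjustment, adjusted p = 0.0353), and the call was lost with replicate 1 or 3 of 40 d left out (adjusted p = 0.126 and 0.0923) and with replicate 1 or 3 of 20-25 d left out (adjusted p = 0.0820 and 0.0592).

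MELO3C023537.2 had 1105, 1908 and 2267 CPM at 40 d, against 10530.2, 6358 and 10076 CPM at 20-25 d (log2 fold change -2.39, SE 0.56, edgeR quasi-likelihood test with Benjamini-Hochberg adjustment, adjusted p = 0.00306). MELO3C016963.2 had 2343, 2085 and 1452 CPM at 40 d, against 6078, 5919.6 and 5348 CPM at 20-25 d (log2 fold change -1.60, SE 0.44, edgeR quasi-likelihood test with Benjamini-Hochberg adjustment, adjusted p = 0.00799). The groups lay apart for both, which the choice required, and the 20-25 d libraries were close to each other for MELO3C016963.2.

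Some genes with many counts were not called, which does not show that they were equal. MELO3C026550.2 had 1839.8, 9325 and 801 CPM at 40 d, against 8264, 4413 and 8834 CPM at 20-25 d. Its groups overlapped through replicate 2 of 40 d, the highest of the 6 libraries: the log2 fold change was -0.86 (95% interval -2.65 to 0.93, edgeR quasi-likelihood test with Benjamini-Hochberg adjustment, adjusted p = 0.452), and -2.58 without that library (adjusted p = 0.0393). MELO3C012331.2 had 2392, 3937 and 4411 CPM at 40 d, against 6845, 4882 and 7038 CPM at 20-25 d. Its groups did not overlap, but the interval of the log2 fold change, -1.98 to 0.30, held 0 (adjusted p = 0.240 in edgeR's quasi-likelihood test). MELO3C026532.2 had 4251, 8477 and 3123 CPM at 40 d, against 2146, 3155 and 2478 CPM at 20-25 d, with an interval of -0.27 to 2.32 and groups that just overlapped (adjusted p = 0.207 in edgeR's quasi-likelihood test).

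**Figure D3:**
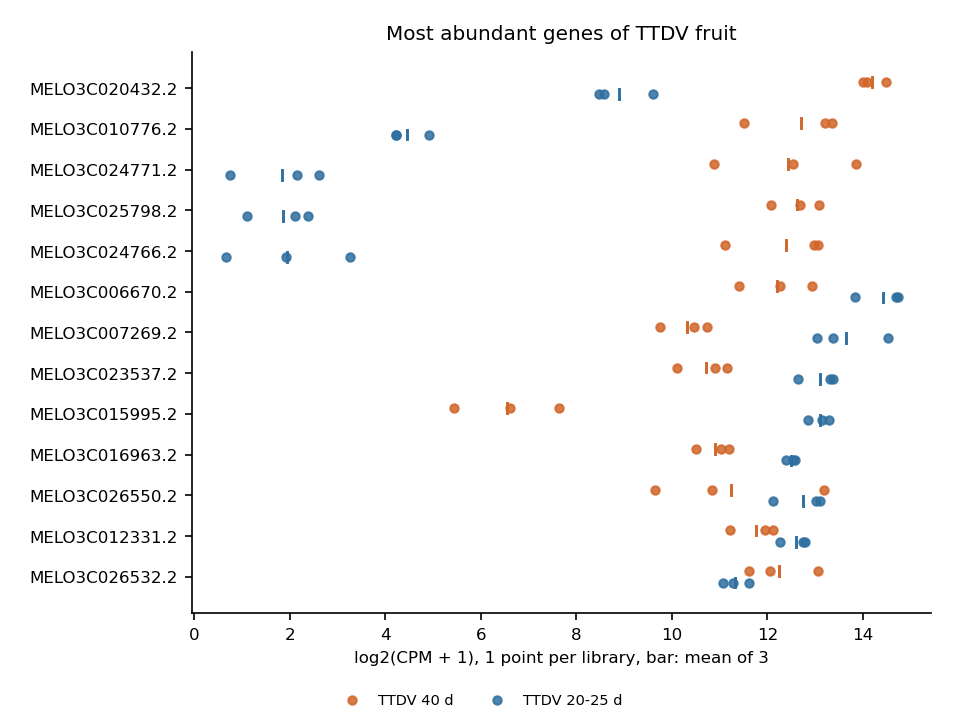
The genes with the most counts among the called (5 higher, 5 lower) and the 3 with the most counts among those not called, as log2(CPM + 1) in each of the 3 TTDV 40 d and 3 TTDV 20-25 d libraries, with a bar at the mean of the logs. Increases start at 29.4 CPM or less in 4 of 5 genes, whereas 4 of 5 decreases end at 861 CPM or more, and the groups of 2 of the 3 not called overlap.

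The other stages of TTDV show where in the interval the difference lay, if the assignment by number holds: the 30-35 d files are attached to samples titled as TTDV fruit at 20-25 d. Comparisons of neighbouring stages share libraries with that of 40 d and 20-25 d, so only their own values are given. For TTDV at 30-35 d against 20-25 d, 43 genes (0.284%) were called, all of them higher. An unadjusted p under 0.05 in edgeR's quasi-likelihood test was found for 2044 genes here. It was found for 5947 genes in 40 d against 30-35 d and for 2755 in 45 d against 40 d. Few calls therefore do not show that the other genes were unchanged. The count of 43 was 508 in DESeq2 and 0 with only the groups compared. By attachment it was 3968, but that contrast sets the files numbered 16 to 18 against those numbered 13 to 15. By number these are 40 d and 30-35 d, so it repeats the next comparison. TTDV at 40 d differed from 30-35 d in 3968 genes (26.2%), 1898 higher and 2070 lower, and TTDV at 45 d differed from 40 d in 281 genes (1.86%), 98 higher and 183 lower, all by edgeR's quasi-likelihood test. These 2 counts were 422 and 45 by attachment and 1924 and 0 with only the groups compared, and the last was 1101 in DESeq2 and 115 with no filter. The first and last counts were the least stable: 43 became 1 without replicate 1 of 20-25 d, 7 without its replicate 3, 9 without replicate 1 of 30-35 d and 141 without its replicate 3. In place of 281, 45 genes were called without replicate 1 of 40 d and 83 without its replicate 2, and 43, 100 and 34 with replicates 1, 2 and 3 of 45 d left out in turn. In place of 3968, 2267 and 2400 genes were called with replicates 1 and 3 of 40 d left out in turn, and 2564 with replicate 1 of 30-35 d left out.

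The levels of the called genes followed the same order. Genes called higher at 40 d held, as a mean ± SD of 3 libraries, 8.77 ± 1.74% of counts in 20-25 d fruit, 13.96 ± 2.76% in 30-35 d fruit, 43.7 ± 9.07% in 40 d fruit and 41.5 ± 4.68% in 45 d fruit. Genes called lower took 47.0 ± 4.87%, 34.4 ± 5.91%, 11.5 ± 2.52% and 11.8 ± 1.91% at the same 4 stages. At 30-35 d the TTDV libraries lay nearer 20-25 d than 40 d, and at 45 d near 40 d. Yet in both shares every 30-35 d library had already moved past every 20-25 d library toward 40 d. The genes were chosen on the 20-25 and 40 d libraries, which favours these ages as the ends. Each library was also placed on an axis of log2(CPM + 1) with the 20-25 d mean at 0 and the 40 d mean at 1. Every gene was weighted by the square of its change, so genes with large changes count most and a typical gene is not described. Over the called higher genes, the 30-35 d libraries lay at 0.126, 0.192 and 0.368 and the 45 d libraries at 0.967, 0.915 and 0.875. Over the called lower genes they lay at 0.223, 0.126 and 0.171 and at 1.05, 0.969 and 0.978. The 40 d libraries themselves, which set the axis, lay at 1.12, 0.785 and 1.10 for higher and at 1.05, 0.889 and 1.06 for lower genes.

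**Figure D4:**
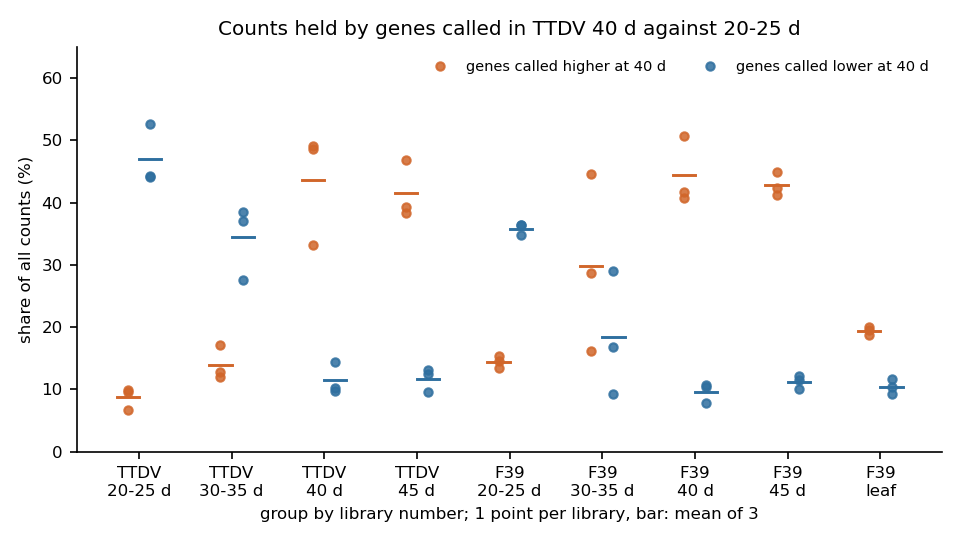
Share of all counts, in percent, held by the genes called higher and by those called lower in TTDV 40 d against 20-25 d, with 1 point per library of each of the 9 groups and a bar at the mean of 3. The TTDV shares change most between 30-35 and 40 d, with 13.96% and 43.7% for the higher and 34.4% and 11.5% for the lower genes. They change less between 20-25 and 30-35 d, from 8.77% and 47.0% at 20-25 d. The F39 30-35 d libraries are widely spread.

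A few genes were called higher already at 30-35 d, though not under every setting. From those also called higher at 40 d, the 3 with the largest increase of 40 d over 20-25 d were taken under the naming rule. They are thus not ranked by their step to 30-35 d. Their values are given in order of age. MELO3C015277.2 had 0.0716, 0.484 and 0.338 CPM at 20-25 d, 2.35, 4.25 and 1.81 CPM at 30-35 d, 37.4, 47.1 and 44.5 CPM at 40 d and 60.7, 33.7 and 32.2 CPM at 45 d. The first 3 stages did not overlap: the log2 fold change was 7.17 (SE 0.67) for 40 d over 20-25 d (edgeR quasi-likelihood test with Benjamini-Hochberg adjustment, adjusted p = 5.62e-06), 3.28 for 30-35 d over 20-25 d (adjusted p = 0.0294) and 3.88 for 40 d over 30-35 d (adjusted p = 0.000184). It had no count in leaf. MELO3C007658.2 had 2.65, 2.03 and 1.78 CPM at 20-25 d, 34.9, 19.7 and 4.86 CPM at 30-35 d and 78.5, 59.4 and 88.4 CPM at 40 d, and its log2 fold changes were 3.28 for 30-35 d over 20-25 d and 1.78 for 40 d over 30-35 d (adjusted p = 0.0151 and 0.0174, edgeR quasi-likelihood test with Benjamini-Hochberg adjustment). MELO3C012184.2 had 2.36, 2.71 and 0.338 CPM at 20-25 d, 22.7, 15.9 and 15.8 CPM at 30-35 d and 48.5, 11.6 and 31.8 CPM at 40 d. The step to 30-35 d was 3.33 on the log2 scale (adjusted p = 0.0339, edgeR quasi-likelihood test with Benjamini-Hochberg adjustment), while that to 40 d was 0.68 (adjusted p = 0.427) with overlapping groups. With only the groups compared in the fit none of the 3 was called at 30-35 d (adjusted p = 0.290 to 0.416), nor was any without replicate 1 of 20-25 d (0.119 to 0.254), replicate 3 of 20-25 d (0.0853 to 0.116) or replicate 1 of 30-35 d (0.0615 to 0.157), by the same edgeR test. Without replicate 2 of 20-25 d MELO3C007658.2 and MELO3C012184.2 were not called (adjusted p = 0.0516 and 0.0631), and without replicate 2 of 30-35 d MELO3C015277.2 was not (adjusted p = 0.0625). The fit without leaf lost MELO3C012184.2 (adjusted p = 0.0573). No gene was called lower at 30-35 d.

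F39, the other cultivar, went through the same interval in libraries whose numbers agree and that are not shared with the TTDV comparison. In F39, 3954 genes (26.1%) were called, 1692 higher and 2262 lower at 40 d, and 2594 without replicate 2 of F39 40 d. Of the genes called higher in TTDV, 1196 were called higher in F39, 43.7% of the TTDV and 70.7% of the F39 list. Of the genes called lower in TTDV, 1568 were called lower in F39, 61% of the TTDV and 69.3% of the F39 list. Over all genes tested, 11.2% were called higher and 15% lower in F39. A shared call requires a shared direction, so the direction is shared at least as often. A positive F39 value was found for 94.2% of the called higher genes, against 48.1% of all genes tested. A negative one was found for 96.7% of the called lower genes, against 51.9% of all genes. The median log2 fold change of genes called higher in TTDV was 1.78 in TTDV and 1.10 in F39, and of genes called lower -2.67 in TTDV and -2.02 in F39. A list chosen in one cultivar is favoured in it, and with the genes chosen in F39 the medians were 1.66 in TTDV and 1.77 in F39 for higher genes and -2.09 in TTDV and -2.60 in F39 for lower genes. Across the 15130 genes, which are not independent replicates, the 2 sets of fold changes correlated at Pearson's r = 0.72 and Spearman's rho = 0.73.

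**Figure D5:**
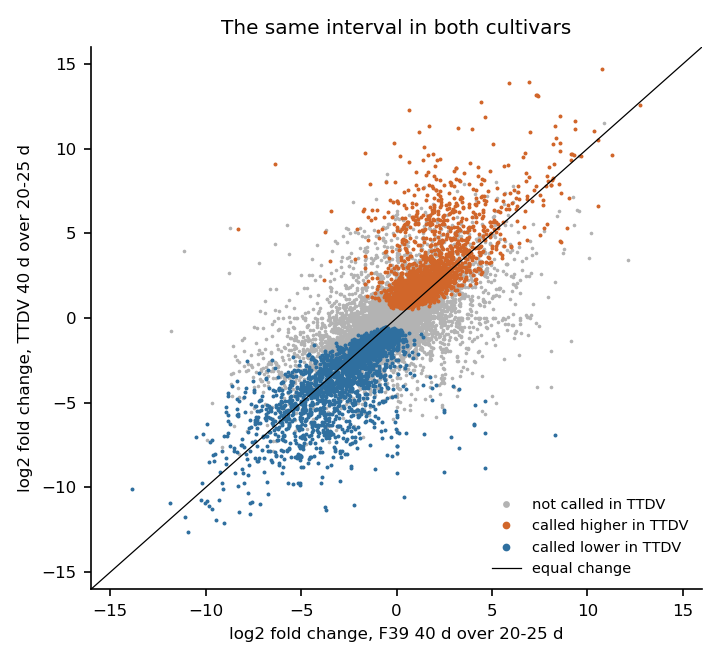
The log2 fold change of 40 d over 20-25 d in TTDV against that in F39, 1 point per gene tested. Most points lie near the diagonal, at a Pearson's r of 0.72 across genes.

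Whether the change differed between the cultivars was tested as an interaction, the TTDV change minus the F39 change. No gene passed (0.00%) in edgeR's quasi-likelihood test, where the smallest adjusted p was 0.101 and 1414 genes had an unadjusted p under 0.05, and DESeq2 called 115 genes, 70 higher and 45 lower. The median standard error of the interaction was 0.82 on the log2 scale, against 0.59 for the TTDV change. For the median gene, the interaction was thus the less precise measure. MELO3C015277.2 had one of the smallest adjusted p of the interaction, with 3.77 on the log2 scale (adjusted p = 0.101, edgeR quasi-likelihood test with Benjamini-Hochberg adjustment). In F39 it had 46.1, 43.8 and 40.7 CPM at 40 d, against 3.73, 7.07 and 3.76 CPM at 20-25 d, a log2 fold change of 3.40 against 7.17 in TTDV. The 40 d libraries of both cultivars overlapped, and every TTDV 20-25 d library lay below every F39 20-25 d library. MELO3C031049.2, one of the largest TTDV decreases, was not called in F39, at 0, 0 and 0.216 CPM at 40 d, against 1.11, 0 and 3.53 CPM at 20-25 d, and its interaction did not pass, at -7.61 (95% interval -16.85 to 1.62, adjusted p = 0.622, edgeR quasi-likelihood test with Benjamini-Hochberg adjustment).

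Only 12 genes were called in opposite directions in the 2 cultivars, 9 higher in TTDV and lower in F39 and 3 the other way, with interaction adjusted p of 0.101 to 0.221 in edgeR's quasi-likelihood test. DESeq2's interaction, with 115 calls in all, called all 12. Both tests use the libraries by which these genes were chosen. Opposite calls favour a large interaction, so neither result is separate support for a difference between the cultivars. The following were chosen after their values were seen. MELO3C016167.2 had 3.72, 0.526 and 5.96 CPM at 40 d in TTDV, against 155, 10.3 and 4.15 CPM at 20-25 d, groups that overlapped (log2 fold change -4.21, edgeR quasi-likelihood test with Benjamini-Hochberg adjustment, adjusted p = 0.00638). That value rested on replicate 1 of 20-25 d, without which it was -1.10 (adjusted p = 0.327), and with only the groups compared the adjusted p was 0.0774. By attachment the sign was the opposite, at 7.26 (adjusted p = 0.000281). In F39 it had 2071, 2448 and 1618 CPM at 40 d, against 191, 288 and 295 CPM at 20-25 d (log2 fold change 3.25, adjusted p = 0.0266, same edgeR test), a call lost without replicate 2 of F39 40 d (adjusted p = 0.0643) or without any 1 of the F39 20-25 d libraries (0.0645 to 0.0868). Every TTDV library thus lay below every F39 library of the same age, and the interaction was -7.47 (adjusted p = 0.101, edgeR quasi-likelihood test with Benjamini-Hochberg adjustment). MELO3C015686.2 had 24.7, 29.4 and 30.1 CPM at 40 d in TTDV, against 8.52, 17.6 and 8.38 CPM at 20-25 d. In F39 it had 6.18, 8.92 and 4.76 CPM at 40 d, against 18.3, 33.4 and 18.3 CPM at 20-25 d. Its groups did not overlap in either cultivar, with log2 fold changes of 1.28 in TTDV and -1.57 in F39 (adjusted p = 0.0181 and 0.00884, edgeR quasi-likelihood test with Benjamini-Hochberg adjustment). The TTDV call was lost without replicate 3 of 40 d (adjusted p = 0.0598) or replicate 1 or 3 of 20-25 d (0.0915 and 0.0935) and by attachment (0.118). The F39 call was lost without replicate 3 of 40 d (0.0531) or replicate 2 of 20-25 d (0.0800).

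The level in F39 leaf, which the contrast does not hold although the leaf libraries entered the fit, gave a further grouping. Of 722 genes under 0.1 CPM in every leaf library, 19.5% were higher and 7.76% lower at 40 d, with a median log2 fold change of 1.4 and a median standard error of 1.86. With the limit at 0.5 CPM, 1525 genes were leaf-silent, 16.1% higher and 8.92% lower, with a median of 0.62. Of 7894 genes at 5 CPM or more in every leaf library, 23.3% were higher and 19.3% lower, with a median of 0.07. Over all genes tested the shares were 18.1% and 17%. Leaf-silent genes were called higher more often than lower at both limits, while the margin among leaf-expressed genes was narrow. Leaf-silent genes could pass the filter on low counts only through fruit libraries, so those tested were selected for counts at some fruit stage. How far this selection shapes their shares and median was not tested, so no link between silence in leaf and the direction of change is drawn. Among the 6514 genes between the thresholds, decreases were the more frequent, with 11.6% higher and 15.2% lower. Leaf levels are from F39, since no leaf of TTDV is among the groups.

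The alternative assignment, in which each file keeps the sample it is attached to, makes TTDV 40 d against 20-25 d a comparison of 6 other libraries. It called 2275 genes higher and 3175 lower. Called under both were 1382 higher genes, 50.5% of those by number and 60.7% of those by attachment, and 1652 lower genes, 64.3% and 52.0%, while 58 genes were called in opposite directions. Most named genes kept their direction and call there, though often at another size: on the log2 scale MELO3C015277.2 had 4.24 in place of 7.17, MELO3C007658.2 1.79 in place of 5.07, MELO3C024263.2 -6.70 in place of -12.09 and MELO3C010979.2 -4.38 in place of -11.43. MELO3C001489.2 had -2.61 in place of 13.17 (adjusted p = 0.458) and MELO3C005450.2 -1.26 in place of 13.11 (adjusted p = 0.625), and MELO3C013057.2 and MELO3C031049.2 were not called, at 1.81 and -4.55, all by edgeR's quasi-likelihood test. MELO3C026532.2, not called by number, was called there, at 2.41 (adjusted p = 0.00694, same edgeR test).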

How the data were processed

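Per the labels' protocols, RNA was extracted with Trizol, treated with DNase and made into libraries with an mRNA-seq kit from NuGen. The authors deposited 1 file per library of raw whole-number counts per gene. The submitters' processing notes name STAR 2.5.4b and edgeR 3.12.1. Neither the counting program, the genome build and annotation, nor the treatment of strand and of multiply mapped reads is known from the sources used here, which leaves near-identical and overlapping genes uncertain.

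Each file took the group of the sample whose title carries the file's library number, which is assumed. For 12 of 27 libraries this is not the sample to which the file is attached. The members and the gene lists were chosen with earlier results of these data known. Of 25200 genes, 3500 had no count in any library, and filterByExpr kept 15130. The 9 group means were fitted in 1 model of all 27 libraries with edgeR 4.0.16 in R 4.3.3 (TMM scaling, robust quasi-likelihood F-test), and p-values were adjusted by Benjamini-Hochberg over all genes tested, at 0.05. Fold changes are log2 and positive where TTDV 40 d is higher. CPM uses the library total, and log2(CPM + 1) the rank correlations. Total counts of 6025615 to 28731038 per library set the precision of low genes, and floors and intervals stand for counting error alone, as PCR reads without molecular identifiers are not independent molecules.

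Genes named had an adjusted p under 0.05 and groups that do not overlap in CPM. They were up to 7 in each direction with the largest change and a mean of 20 CPM or more in the higher group, up to 5 in each direction with the highest mean CPM among those changed more than 2-fold, and up to 3 in each direction also called between 20-25 and 30-35 d. The 3 genes with the highest mean CPM among those not called were added, and others named are said to be chosen after their values were seen. Alternatives were DESeq2 1.42.0, median-of-ratios scaling, no filter, a stricter filter (3 libraries at 1 CPM or more, mean 5 CPM or more), fits without leaf or with only the groups compared, the attachment of files, other thresholds for on, off and leaf classes, and leaving out each library. The counts on and off without replicate 2 of 40 d, the overlap of both assignments and the other settings of single genes outside the naming rule were added after seeing the data. The scripts were tested on simulated data with a single spread for all genes, smaller than that between the TTDV 40 d or 20-25 d libraries. That test checks the code and gives no rate of false or missed calls for these data. Tables and figures used Python 3.11.15, pandas 2.3.3, numpy 2.4.6, scipy 1.17.1 and matplotlib 3.10.9. Gene lists by product name could not be used, since 0 IDs matched the reference gene table (USDA_Cmelo_AY_1.0).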

Additional observations from a re-analysis of the deposited data

How the results depend on the processing

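The counts of genes called higher (2736), lower (2571) and changed over 2-fold (4835) in TTDV 40 d against 20-25 d moved by less than 1.5 times under the other fits and ranged from 1611 to 2515, from 1675 to 2498 and from 3465 to 4744 with 1 library left out. The median log2 fold change over all tested genes, 0.00, was -0.144 by attachment and -0.119 with median-of-ratios scaling, -0.031 to 0.031 with 1 library left out, and the share of calls that were higher moved by less than 10 percentage points. F39 calls (3954) ranged from 2594 to 2976 with 1 library left out. The interaction had 0 calls, 729 by attachment, 115 in DESeq2, 2 with only the groups compared, and 0 to 1 with 1 library left out. For 30-35 d over 20-25 d, 43 calls became 508 in DESeq2 and 0 with only the groups compared (1 to 141 with 1 library left out). By attachment they became 3968, from the same libraries that by number are 40 d and 30-35 d. For 40 d over 30-35 d, 3968 became 422 by attachment and 1924 with only the groups compared (2267 to 4051). For 45 d over 40 d, 281 became 45 by attachment, 115 with no filter, 0 with only the groups compared and 1101 in DESeq2 (34 to 286). Values by attachment come from other sets of libraries, and the causes of the remaining shifts were not tested. MELO3C016167.2, -4.21 by number, was at 7.26 by attachment. Genes on and off at 40 d (5 and 17) were 14 and 43 with on at 2 CPM, 12 and 71 with off at 0.5 CPM and 24 and 41 without replicate 2 of 40 d. By attachment MELO3C001489.2 was at -2.61 and MELO3C005450.2 at -1.26. Over the 30 named genes, 368 of 385 alternative values kept direction and call, 13 lost the call, 2 gained it and these 2 reversed. Settings that gave no value for a gene are left out of the 385. Among them are only the groups compared for MELO3C013057.2, MELO3C001489.2 and MELO3C005450.2, and DESeq2 for MELO3C013057.2. Most of the 30 were chosen among called genes, which favours a kept call. No paired analysis was possible because the labels give no number that ties a library of one group to a library of another. Depth limits genes under 1 CPM, with a median standard error of 1.68 on the log2 scale.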

Other observations

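MELO3C016167.2, which was picked after seeing its values, ranged from 0.526 to 5.96 CPM in TTDV fruit at 40 d and from 4.15 to 155 CPM at 20-25 d, both by number, and from 6.29 to 24.7 CPM in TTDV fruit at 45 d, whose numbers agree. In F39 fruit it ranged from 1618 to 2448 CPM at 40 d and from 191 to 295 CPM at 20-25 d. The files numbered 59 to 61, F39 fruit at 45 d by number and attached to TTDV fruit at 40 d, had 2763 to 2994 CPM.

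With a rule added after seeing the data, 42 genes were at least 4-fold higher in each of the 9 F39 fruit libraries with agreeing numbers than in each TTDV 45 d library, MELO3C016167.2 among them, and 35 were at least 4-fold lower. Libraries whose numbers differ were mixed. Of the 42, 17, 34 and 18 lay nearer the F39 side in the TTDV 40 d libraries by number and 38, 37 and 38 in the TTDV 20-25 d libraries by number, against 18, 20 and 20 in the files numbered 59 to 61, F39 by number. Of the 35, 11, 5 and 14 lay nearer the TTDV side in the TTDV 40 d libraries by number and 3, 5 and 7 in the TTDV 20-25 d libraries by number, against 16, 18 and 17 in the files numbered 59 to 61. In the TTDV 30-35 d libraries by number the values were 34, 36 and 34 of the 42 and 4, 5 and 5 of the 35. In both sets the TTDV 20-25 d and 30-35 d libraries by number lay on the F39 side for most genes. The files numbered 59 to 61 were divided. Cultivar and stage cannot be told apart in these lists, since 45 d is the only TTDV stage with agreeing numbers.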
